A study of Mus musculus with 13 samples.

Results

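Acetylation of histone H3 at lysine 27 (H3K27ac) was compared between C2C12 cells 24 h and 72 h after the change to differentiation medium. C2C12 is a mouse myoblast line that leaves the cell cycle, fuses and forms myotubes when serum is lowered. The members of the comparison were all peaks of the 2 deposited lists, 80069 at 24 h and 69251 at 72 h. They merged into 92639 regions, out of 211369 regions over the 12 libraries whose lists were used. Peaks of both times that shared at least 1 bp were called kept. A 72 h peak with no 24 h peak was called gained, and a 24 h peak with no 72 h peak was called lost.

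The labels name no edit in the 24 h and 72 h cells, which were grown in DMEM with 10% fetal bovine serum and then held in DMEM with 2% horse serum. The other libraries compared were cells of the same time course at -24, 0, 6 and 12 h, wild-type cells at 48 h, and 5 CRISPR/Cas9 lines at 48 h. One of these lines had MyoD expression knocked out (Myod1 KO). In the other 4, regions that the submitters name hotspots were deleted, H1 alone, H3 alone, H3 in cells already lacking H2 (H23), and H3 in cells already lacking H4 (H34). A CRISPR control named in the labels at 48 h was not analysed here. Whether a line was 1 clone was not given in the sources used here. With 1 library per condition, differences between conditions have no replicate check, and no p-value is given. The labels give myoblasts as the cell type at every time, also at 72 h, and the state of the cells was not checked against marker genes, because the peaks are placed on the mouse build mm9 and no annotation of that build was used. For the same reason no gene is named at a position and no sequence is shown.

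H3K27ac is laid down by the acetyltransferases p300 and CBP at active promoters and enhancers, and is removed by histone deacetylases. In muscle differentiation, MyoD and myogenin bind E-box sequences in enhancers and recruit these acetyltransferases, while MEF2 proteins act with them at genes of the contractile apparatus. Dense groups of acetylated enhancers are often called super-enhancers, and are found by joining neighbouring peaks into domains. In a mixed culture, a lower signal at a site in every cell and the loss of the site in some cells cannot be told apart.

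The 24 h and 72 h libraries had most of their peaks in common. Lost peaks numbered 27792, or 34.7% of the 24 h list (95% Wilson interval 34.4 to 35.0), and gained peaks 19914, or 28.8% of the 72 h list (28.4 to 29.1). The intervals cover counting error alone, because adjacent peaks depend on each other and there are no replicate libraries. The order of the shares turned when list length was made equal. With the 69251 strongest peaks of each list, 30.0% of 24 h peaks were lost and 32.8% of 72 h peaks were gained. The 2 lists covered nearly equal lengths of genome, 24.5 Mb at 24 h and 24.9 Mb at 72 h, since peaks were narrower at 24 h, with a median of 203 bp against 249 bp. The narrowest peak was 100 bp at 24 h and 128 bp at 72 h, so the lists also differed in their lower limit of width. Kept regions, 44933 in number, held 24.7 Mb. Of all merged regions, gained ones were 21.5% and held 3.91 Mb, and lost ones were 30% and held 4.43 Mb. Within kept regions the median length covered by peaks was 319 bp at 24 h and 334 bp at 72 h, and the median ratio of 72 h to 24 h was 1.05. Kept regions at least 2-fold wider at 72 h numbered 4130 (9.19%), and those at least 2-fold wider at 24 h 2124 (4.73%).

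Loss and gain were most frequent among weak and narrow peaks. Each list was cut into 10 classes of equal size by the authors' score, whose unit is not given. In the lowest class 66.4% of 24 h peaks were lost and 60.7% of 72 h peaks were gained. In the highest class the shares were 0.225% (18 peaks) and 0.0866% (6 peaks). The share fell from each class to the next in both lists. Among the 1000 strongest peaks of each list, none lacked a peak in the other whole list, which allows a share of up to 0.383% by the Wilson interval. The strongest peaks of the 2 lists were nevertheless only in part the same ones. Of the 1000 strongest 24 h peaks, 390 (39.0%) overlapped none of the 1000 strongest at 72 h. Among the 10000 strongest, 46 lacked a peak at 72 h and 31 lacked one at 24 h. Width gave the same picture. At least 1 kb wide were 1 lost and 2771 kept peaks of the 24 h list, and 9 gained and 3076 kept peaks of the 72 h list. The median width was 134 bp for lost and 168 bp for gained peaks, against 278 and 311 bp for kept peaks of the 24 h and 72 h lists.

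**Figure D1:**
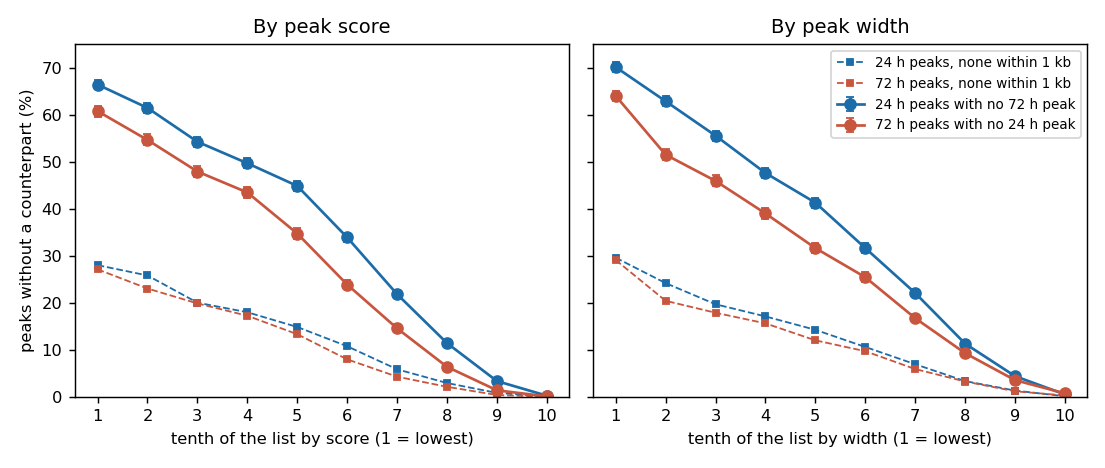
Percentage of peaks without a counterpart in the other list, for 10 classes of equal size by score (left) and by width (right); circles with solid lines show peaks with none at 1 bp overlap, with 95% Wilson intervals, and squares with dashed lines peaks with none within 1 kb. The circles fall from 66.4% (24 h) and 60.7% (72 h) in the lowest score class to under 1% in the highest.

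Many of these peaks lay near a peak of the other time. Of lost peaks, 63.4% were within 1 kb of a 72 h peak, and of gained peaks 59.9% were within 1 kb of a 24 h peak. Peaks with no counterpart within 1 kb made up 12.7% of the 24 h list (10169 peaks) and 11.5% of the 72 h list (7980 peaks), nearly equal shares.

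Lists of neighbouring times in the same format give the background for this step. In the deposited lists, loss ranged from 18.0% (6 to 12 h) to 45.4% (12 to 24 h) and gain from 14.0% (12 to 24 h) to 36.0% (-24 to 0 h), so the 24 to 72 h values lay inside both ranges. With 69251 peaks per list, the 24 to 72 h step had the highest gain of the 5 steps, 32.8% against 17.3 to 29.4%. Its loss of 30.0% was second to the 34.5% of the 12 to 24 h step. The Jaccard index, which is the shared over the combined covered length, was then 0.498 for 24 to 72 h, 0.512 for 12 to 24 h and 0.570 to 0.615 for the other 3 steps. The 24 to 72 h step was the only one to span 48 h.

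**Figure D2:**
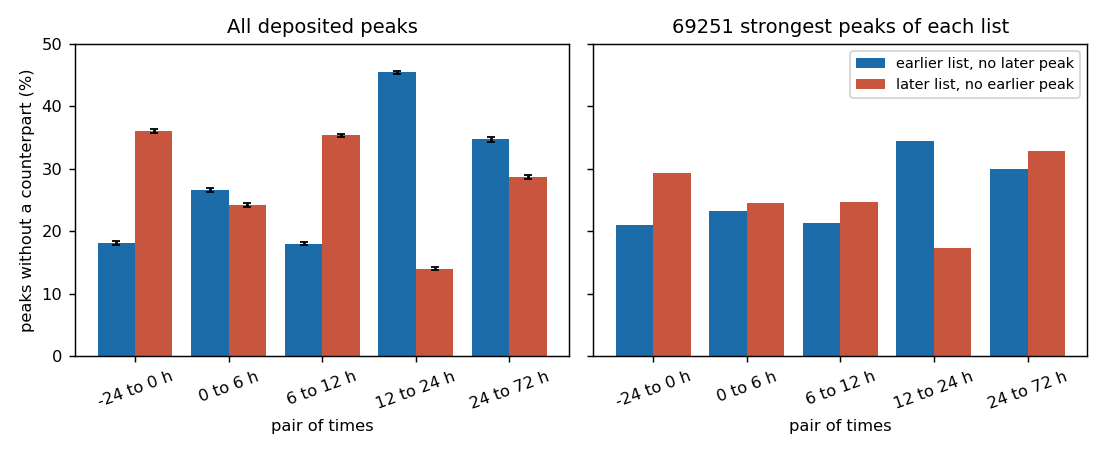
Percentage of peaks without a counterpart for each pair of neighbouring times, with all deposited peaks (left, error bars are 95% Wilson intervals) and with 69251 strongest peaks per list (right, no intervals drawn). Blue bars are peaks of the earlier list and red bars peaks of the later list; at equal list lengths the 24 to 72 h pair has the tallest red bar, 32.8%.

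Over all gained peaks, the larger part had been listed before 24 h. Of the 19914, 12703 (63.8%, 63.1 to 64.5) overlapped a peak at -24, 0, 6 or 12 h, and 10550 (53.0%) overlapped one at 12 h, the longest list of the time course. A peak at all 4 earlier times was found for 3129 (15.7%). For the 7980 gained peaks with no 24 h peak within 1 kb this did not hold: 44.9% (43.8 to 46.0) overlapped a peak at -24, 0, 6 or 12 h, and 43.2% had none in those lists or in wild-type cells at 48 h. Gained peaks thus included sites listed before 24 h, absent from the 24 h list and listed again at 72 h. Of kept 72 h peaks, 97.8% overlapped a peak at 1 or more of the 4 earlier times. Lost peaks stood between, with 81.2% (80.7 to 81.6), and 31.1% of them had a peak at all 4 earlier times.

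The 48 h libraries held fewer of the gained than of the lost peaks. In wild-type cells at 48 h, 7575 gained peaks (38.0%, 37.4 to 38.7) had an overlapping peak, against 13653 lost peaks (49.1%, 48.5 to 49.7). The difference was -11.1 percentage points (-12.0 to -10.2). Kept peaks had one in 78.4% (24 h) and 79.7% (72 h) of cases. Lost peaks were found more often than gained ones in all 10 other libraries, from -24 h to each edited line. This also held with every list cut to 55585 peaks, the length of the shortest, where the wild-type values were 40.9% for gained and 54.3% for lost peaks. The smallest gap of the 10 was then in the H1 line, with 51.9% against 58.5%. Gained and lost peaks were both weaker than kept ones, so the shares were also read within a score class. The wild-type 48 h share was higher for lost than for gained peaks in each of the 10 classes, but the size of the gap varied. It was 40.5% against 32.6% in class 1, 39.7% against 37.5% in class 3, where the intervals overlapped, 52.8% against 40.7% in class 5 and 74.0% against 58.3% in class 8. The intervals also overlapped in class 10, with 18 lost and 6 gained peaks. Kept peaks of class 8 had 86.7% (24 h) and 85.8% (72 h).

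Over the 6 libraries at 48 h together, 16147 gained peaks (81.1%) overlapped a peak in at least 1 library, against 23815 lost peaks (85.7%). Those with a peak in all 6 were 9.25% of gained and 15.1% of lost peaks, and 52.7% of kept 72 h peaks. No 48 h library had a peak at 3767 gained sites (18.9%) and 3977 lost sites (14.3%). Single libraries ranged from 15.9% of gained peaks in the Myod1 KO line to 64.4% in the H1 line. The Myod1 KO list was the shortest of the 12, with 55585 peaks, and the H1 list the longest, with 137960. With all lists cut to 55585 peaks, the Myod1 KO line still held the lowest share of gained peaks, 23.1%, and H1 the highest, 51.9%. The 48 h lists were deposited in another format than the time course, with a median width of 420 bp in wild-type cells, 293 to 349 bp in the hotspot lines and 234 bp in the Myod1 KO line. The lowest score was 30 in each hotspot list, 40 in the Myod1 KO list and 41 in the wild-type 48 h list. The 48 h lists thus also differed in cutoff. Format and time cannot be told apart.

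**Figure D3:**
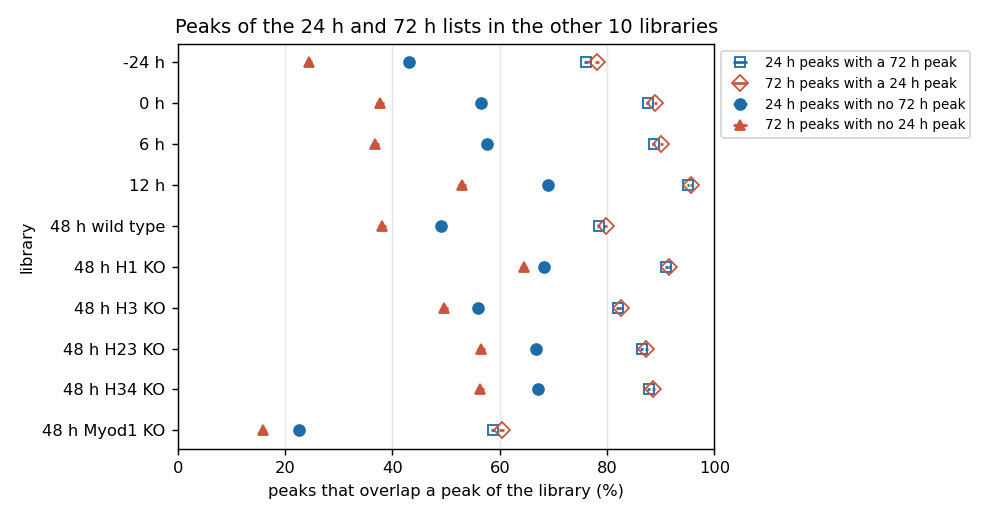
Percentage of gained, lost and kept peaks that had an overlapping peak, for each of the 10 remaining libraries, with 95% Wilson intervals. The lost peaks lie to the right of the gained peaks in every library, and the Myod1 KO line gives the lowest values, 15.9% and 22.6%.

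The histories of gained peaks were read from the earlier lists and the wild-type 48 h list. Listed before 24 h and again at 48 h were 5779 (29.0%). Absent from -24 to 12 h and listed in wild-type cells at 48 h were 1796 (9.02%), which are called late peaks here. No peak in any of these 5 lists was found for 5415 (27.2%). The remaining gained peaks were listed before 24 h but not at 48 h. The most frequent single pattern among gained peaks after absence from all 5 lists was presence in all 5, with 2005 peaks (10.1%). A peak at 12 h alone followed, with 1867 (9.38%). Among lost peaks, 5811 (20.9%) were in all 5 lists and 3826 (13.8%) in none.

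Gained peaks with no earlier peak were seldom listed in the Myod1 KO line, whose list was the shortest. Of the 48 h libraries it also held the lowest shares of lost peaks (22.6%) and of kept 72 h peaks (60.4%). Of the 1796 late peaks, 219 (12.2%, 10.8 to 13.8) overlapped a peak of the Myod1 KO line. Of the 5415 gained peaks absent from the earlier lists and from wild-type cells at 48 h, 216 (3.99%) did. These 5415 were chosen for having no wild-type 48 h peak, and the hotspot lines also listed a minority of them. Their shares were 39.4% in H1, 27.1% in H23, 25.3% in H34 and 22.3% in H3. For the 5779 gained peaks with an earlier peak and a wild-type 48 h peak, the Myod1 KO share was 32.7% (31.5 to 33.9). The 1796 and the 5779 were set apart by the earlier lists, and the part of this choice in their shares was not tested. For the 39331 kept peaks with a wild-type 48 h peak, whatever their earlier history, it was 69.3%. The Myod1 KO list covered 18.3 Mb against 45.4 Mb in wild-type cells, and the part of its length in these shares was not tested. Kept peaks were stronger and wider, with a median of 340 bp against 170 bp for late peaks. In score classes 5 to 7 alone, the Myod1 KO shares were 12.1% of 431 late peaks, 36.5% of 1824 gained peaks with an earlier peak and 61.7% of 11868 kept peaks.

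The hotspot lines, whose lists were longer (103134 to 137960 peaks), held more of the late peaks than the Myod1 KO line did. Their lists also reached lower scores, with a lowest score of 30 against 40 in the Myod1 KO list. The part of list length and cutoff in these shares was not tested. H1 held 86.9%, H23 65.7%, H3 63.3% and H34 61.4% of the 1796. Of gained peaks with an earlier peak they held 90.2%, 86.5%, 80.4% and 87.6% in the same order. The 2 sets were closest in H1 and further apart in H3, H23 and H34, and also in the Myod1 KO line (12.2% against 32.7%). In score classes 5 to 7 the late shares were 91.4% in H1, 65.9% in H23, 63.3% in H3 and 56.1% in H34, against 92.8%, 87.7%, 82.0% and 87.8%. The H3, H23 and H34 lists all come from cells with H3 deleted and each is a single library, so deletion, line and library cannot be told apart. Lost peaks with a wild-type 48 h peak were held at 35.3% by the Myod1 KO line and at 77.4 to 88.3% by the hotspot lines.

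**Figure D4:**
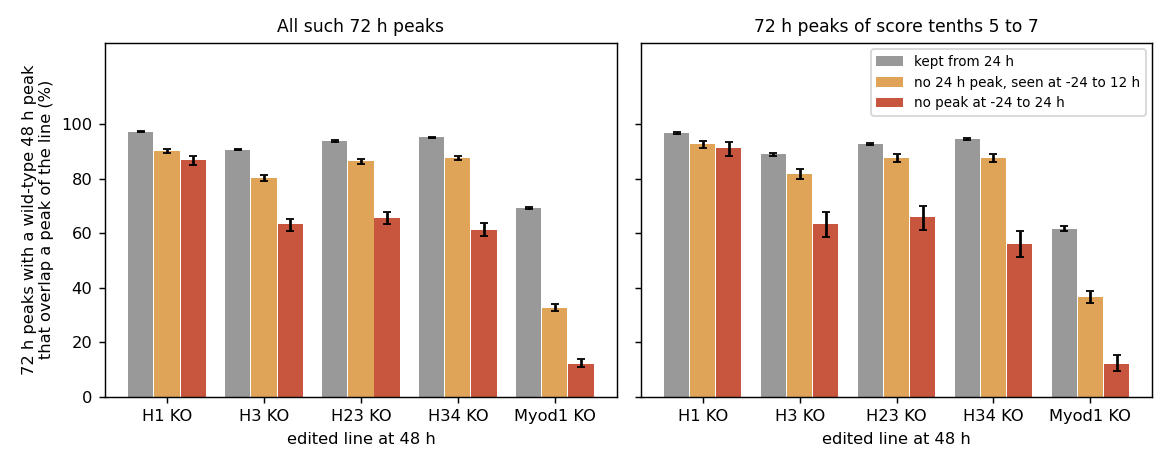
Percentage of 72 h peaks with a wild-type 48 h peak that overlapped a peak in each edited line, for late peaks, gained peaks with an earlier peak and kept peaks, over all score classes and within classes 5 to 7, with 95% Wilson intervals. Late peaks (red) are lowest in every line, with 12.2% in the Myod1 KO line and 86.9% in H1 over all classes, and the intervals of late and earlier-listed gained peaks overlap in H1 within classes 5 to 7.

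The 10 strongest 72 h peaks with no 24 h peak within 1 kb had scores of 19.75 to 29.34 and ranked from 3865 to 10035 in their list. All 10 had a peak in at least 1 library at 48 h, and 7 had one in wild-type cells. Over all gained peaks, 81.1% had one in at least 1 library at 48 h. Kept 72 h peaks of score classes 9 and 10 had a wild-type 48 h peak in 92.5% and 97.9% of cases. The highest of the 10 gained peaks was chr12:3109911-3110068, with a score of 29.34. It lay 125 kb from the nearest 24 h peak, had no peak from -24 to 12 h, and was listed in all 6 libraries at 48 h. The second, chr10:41295641-41296704, was 1064 bp wide and scored 23.83. It was listed at 12 h and in every 48 h library except the Myod1 KO line.

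Another 4 of the 10 had been listed before 24 h. The peak chr17:79698077-79698355 (score 22.27) was listed at all 4 times before 24 h and in all 48 h libraries except the Myod1 KO line. The peak chr12:85703034-85703335 (score 20.73) was also listed at all 4 earlier times and in the 5 edited lines, but not in wild-type cells at 48 h. The peak chr17:3079358-3079615 (20.73) was listed at 12 h and in all 6 libraries at 48 h, and chr11:99003175-99004042 (22.27) at 6 and 12 h and in the wild-type and H1 libraries. All 4 were listed at 12 h and absent at 24 h.

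The other 4 had no peak at any time before 72 h in the time course lists. The peaks chr14:32378363-32378748 (22.27) and chr4:123299362-123299773 (20.73) were listed in wild-type cells at 48 h, and neither in the Myod1 KO line. The peak chr4:119866905-119867103 (22.27) was listed at 48 h in the H23 line alone, and chr13:95169233-95169604 (19.75) in the H34 line alone.

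Late peaks with no peak within 1 kb in any list up to 24 h numbered 670, a set chosen after values were seen. Their 10 strongest included the peaks above on chromosomes 12, 14 and 4 (123299362). Next came chr4:47417200-47417466 (score 18.03), listed in the 4 hotspot lines, chr2:173515251-173515445 (17.72) and chr17:87388197-87388403 (17.72). Of the 10, H1 listed 9, H3 and H23 5 each, H34 4 and the Myod1 KO line 1, which was the chromosome 12 peak.

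The 10 strongest 24 h peaks with no 72 h peak within 1 kb had scores of 22.47 to 30.94. All 10 were listed at 6 and 12 h, and 7 in all 10 other libraries. Presence in other libraries was also common among strong kept peaks. Kept 24 h peaks of score classes 9 and 10 had a wild-type 48 h peak in 93.2% and 98.4% of cases. A Myod1 KO peak was found for 80.2% and 94.5% of them. The wild-type 48 h list held 9 of the 10 lost peaks. The highest was chr10:107052191-107052530 (score 30.94), listed in all 10, followed by chr9:72339893-72340076 and chr17:43891037-43891323 (27.68 each), also in all 10. The peak chr5:135058692-135058856 (25.92) was missing from wild-type cells at 48 h, chr12:72008201-72008458 (24.19) from 0 h, and chr8:108862193-108862387 (22.47) from -24 h and the Myod1 KO line. The 10 lost peaks thus had peaks in 8 to 10 other libraries, and the 10 gained peaks in 1 to 9.

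Joining peaks within about 13 kb of each other (the customary distance for super-enhancers) into domains of at least 3 peaks gave 8810 domains at 24 h and 7437 at 72 h. Domains with no peak of the other time inside were few. At 72 h, 98 were new (1.32%, 1.08 to 1.60), and 287 of the 24 h domains were gone (3.26%, 2.91 to 3.65). With 69251 peaks per list these were 163 new and 173 gone, so the excess of gone domains was small at equal list length. New domains were small, with exactly 3 peaks in 80 of 98, a median span of 2.50 kb and a highest score of 22.27. Of domains with at least 5 peaks, 4 were new and 39 gone, and of those with at least 10, none was new and 1 was gone.

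Most new domains were sites with acetylation in another library. Of the 98, 62 (63.3%, 53.4 to 72.1) held a wild-type 48 h peak, against 96.3% of all 72 h domains. A peak in any library at 48 h was held by 80 (81.6%), and in all 6 by 19. Peaks at -24, 0, 6 or 12 h were held by 75 (76.5%). New domains with no earlier peak and a wild-type 48 h peak numbered 14, and 4 had no peak in any other library. By line, H1 had a peak in 72 of the 98, H34 in 57, H23 in 56, H3 in 51 and Myod1 KO in 27. Over all 72 h domains the lines had a peak in 97.6%, 95.7%, 95.3%, 92.3% and 86.6%, in the same order. Each list from -24 to 12 h had one in 93.7 to 99.1% of all 72 h domains. Domains were longer over the whole 72 h list, with a median span of 8.55 kb against 2.50 kb for new ones. The part of span in these shares was not tested. Gone domains were found in the other libraries more often than new ones. A wild-type 48 h peak was held by 249 of 287 (86.8%, 82.3 to 90.2), and peaks at all 4 earlier times by 234 (81.5%, 76.6 to 85.6), against 28 of the 98 new domains (28.6%, 20.6 to 38.2).

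Counted by peak, 104 of the 323 peaks in new domains (32.2%, 27.3 to 37.5) overlapped a wild-type 48 h peak. The share was 36.4% over all gained peaks of 72 h domains and 67.1% over all their peaks. It lay near that of gained peaks in general. In gone domains 585 of 1026 peaks (57.0%) had a wild-type 48 h peak, against 48.6% of all lost peaks of 24 h domains.

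The new domain with the most peaks was chr3:89382098-89410562, with 9 peaks over 28.5 kb. It held no peak at -24, 0, 6 or 24 h and 3 at 12 h. The wild-type 48 h list placed 8 peaks inside it, with 11 in H1, 12 in H3, 9 in H34, 2 in H23 and 1 in the Myod1 KO line. The domain chr16:92197581-92210411, with 7 peaks over 12.8 kb and a highest score of 16.25, held no peak in any of the other 11 libraries. The domain chr14:48419851-48427981 (6 peaks, 8.13 kb) held 1 peak at 12 h and 3 in wild-type cells at 48 h. These 3 domains differed in whether the 48 h libraries held them. All 4 peaks of chr7:97197865-97203626 overlapped wild-type 48 h peaks, and so did all 4 of chr19:47565254-47567500, which also held peaks at all 4 times before 24 h. The others of the 10 with the most peaks were chr4:100072709-100080181 with 5 peaks, and chr15:103326203-103328603, chr2:154503094-154505256, chr1:151991893-151994127 and chr8:14716988-14731154 with 4 peaks each. Each of these 5 held at least 1 wild-type 48 h peak.

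Among gone domains, chr3:14848987-14871791 had the most peaks, 10 over 22.8 kb. The 4 lists before 24 h placed 5, 9, 5 and 12 peaks there in order of time, the wild-type 48 h list placed 8, and the edited lines 7 to 19. The next 4 were chr11:67886317-67906286 (9 peaks), chr6:67425025-67432238 (8), chr7:91693928-91707975 (7) and chr1:41190724-41200147 (7), and all 4 were present at every earlier time and in wild-type cells at 48 h. In the edited lines, chr6:67425025-67432238 held no peak in H3 or Myod1 KO, and chr7:91693928-91707975 none in H1 or H3.

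**Figure D5:**
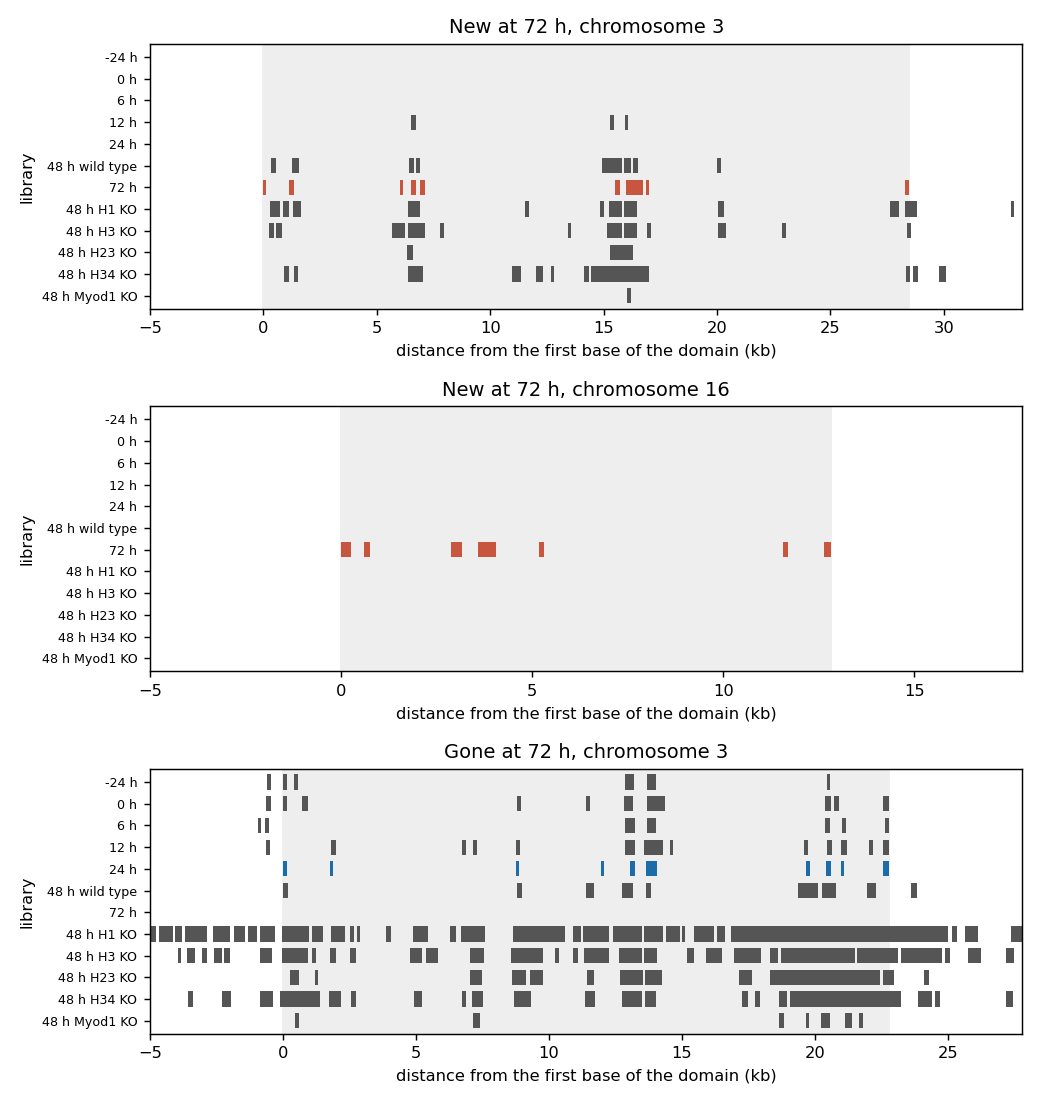
Peaks of each library over the 2 new domains with the most peaks (top and middle) and the gone domain with the most peaks (bottom), drawn by distance in kb from the start of the domain (grey span); each bar is 1 deposited peak. The top domain has 9 peaks at 72 h and 8 in wild-type cells at 48 h, the middle one has peaks at 72 h alone, and the bottom one has 10 peaks at 24 h and none at 72 h.

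Domains were also ranked by summed width times score, and in the 48 h lists by summed width times fold enrichment. Those past the point of slope 1 were called large, a cut also used for super-enhancers. Promoters were left in. There were 794 at 24 h and 655 at 72 h. Of the 72 h ones, 67 (10.2%, 8.14 to 12.8) met no large 24 h domain, and of the 24 h ones 204 (25.7%, 22.8 to 28.8) met no large 72 h domain. None of the 67 or the 204 lacked a domain in the other list, so each of them had acetylated peaks at both times. Of the 67, 18 (26.9%) were large in wild-type cells at 48 h and 45 in H1, against 351 (59.7%) and 477 of the 588 domains large at both times.

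The highest-ranked of the 67 was chr8:88016013-88058196, rank 219 at 72 h and at best 1040 at 24 h. Its peaks covered 9285 bp at 72 h and 5332 bp at 24 h. Next were chr5:35949889-35991619 (rank 243 against 1419), chr17:32025349-32077441 (272 against 1270), chr1:121415797-121455029 (290 against 867) and chr16:45326776-45384155 (312 against 918). Of the 37 peaks at 72 h in the last, 23 overlapped a peak in wild-type cells at 48 h, 36 in H1, 23 in H34, 6 in H3, 1 in H23 and none in the Myod1 KO line. No other domain of these 5 was without Myod1 KO peaks, whose numbers were 3 of 17, 8 of 24, 13 of 24 and 10 of 21 peaks.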

How the data were processed

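H3K27ac peak lists of 12 libraries were used, 1 per condition. The submitters' processing notes name MACS2 2.1.0 and the build mm9, and each list belongs to 1 library. Aligner, control and cutoffs are not given in the sources used here. Read depth is unknown. The 5-column time course lists hold a score per peak with no stated unit, as the authors deposited it. The 10-column lists at 48 h hold a score of 10 times −log10 p, the fold enrichment, and the −log10 p and q values, as the authors deposited them. These values served only to rank or filter peaks and domains within a list.

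Overlaps, domains and 95% Wilson intervals were computed in Python 3.11.15 with numpy 2.4.6 and pandas 2.3.3, and figures drawn with matplotlib 3.10.9. Tied scores were ordered at random with a fixed seed. The code was tested on simulated peaks. Coordinates are mm9, counted from 1. Named regions were the 10 highest-scoring gained and lost peaks with no counterpart within 1 kb, the 10 new and 5 gone domains with the most peaks, and the 5 highest-ranked domains large at 72 h alone. The planned gene lists, marker genes and motif searches were not run, since the gene tables used here are of another build. The members and lists were chosen with earlier results of these data known.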

Additional observations from a re-analysis of the deposited data

How the results depend on the processing

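Of 62 alternatives over 14 results, 14 stayed within the interval or 1.5 times the count and 48 moved. The gained minus lost difference at 48 h, the only result with a sign, stayed negative in all 5 of its alternatives. No paired analysis was possible because each condition had 1 library. The assignment of peaks to genes was not run. The last setting, every list cut to 55585 peaks, was added after seeing the data.

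The shares below are, in order, 24 h peaks lost, 72 h peaks gained, gained and lost peaks with a wild-type 48 h peak, gained and lost peaks with a peak from -24 to 12 h, and the gained minus lost difference at 48 h in points. An overlap of 50% of the shorter peak gave 39.6%, 33.5%, 34.9%, 45.1%, 62.3%, 77.7% and -10.2. Equal numbers gave 30.0%, 32.8%, 39.5%, 52.2%, 55.2%, 77.1% and -12.7. Merging peaks within 1 kb gave 29.2%, 26.5%, 33.8%, 43.5%, 54.8%, 72.7% and -9.65, with 6236 regions gained and 7408 lost. Cutting every list to 55585 peaks gave 29.0%, 31.5%, 40.9%, 54.3%, 55.9%, 78.5% and -13.5. A score of at least 5, or q under 0.001, moved only the lost shares, to 34%, 49.8% at 48 h and 81.8% from -24 to 12 h. Loss exceeded gain in the deposited lists, with 50% overlap, with merging and with the stricter score, but the order turned at equal list lengths, where 20768 regions were lost and 22745 gained.

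New domains numbered 160 with stitching within 5 kb, 429 with at least 2 peaks, 4 with at least 5, 163 at equal numbers and 167 when under 20% of peaks overlapped. Gone domains numbered 918, 39, 173 and 443 under the last 4. The share of new-domain peaks with a wild-type 48 h peak was 39.4% with at least 2 peaks, 18.5% with at least 5 and 37.8% under the 20% rule. With stitching within 5 kb, 17.8% of large 72 h domains and 21.5% of large 24 h domains had no large counterpart, and ranking by summed width gave 19.2% for the latter. The cause of these moves was not tested. Unknown read depth limits every absence of a peak to absence from the deposited list.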

Other observations

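Loss differed by chromosome more than gain did. The share of 24 h peaks lost ran from 30.0% on chromosome 19 to 45.8% (42.9 to 48.6) on chromosome X, which held 1169 peaks of the 24 h list and 818 of the 72 h list. Gain ran from 25.8% on chromosome X to 30.8% on chromosome 15.

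Isolated peaks, with no other peak within about 13 kb, lacked a counterpart more often than peaks in large groups. At 24 h, 53.3% of isolated peaks were lost, against 28.6% of peaks in domains of 20 or more. At 72 h, 40.7% of isolated peaks were gained, against 27.5%. Isolated 24 h peaks had a median score of 8.40, against 9.81 in those domains, and the part of score in this was not tested.

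The highest-ranked domain large at 24 h alone was chr3:121243308-121354234, rank 127 at 24 h and at best 1023 at 72 h. Of its 63 peaks at 24 h, 25 overlapped a 72 h peak, 36 a wild-type 48 h peak and 55 a 12 h peak. It was named after its values were seen.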
